A study of Mus musculus with 6 samples.

Results

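The unfolded protein response is the programme by which a cell matches the folding capacity of its endoplasmic reticulum (ER) to the load of secretory and membrane proteins. It was followed here through 10 genes: the sensors Ern1 and Atf6, the transcription factors Xbp1, Atf4 and Ddit3, the ER chaperones and co-chaperones Hspa5, Dnajb9 and Sdf2l1, and the degradation factors Edem1 and Herpud1. Every probe set that the platform annotation assigns to a single gene, with that gene among the 10, was taken. This gave 26 of the 45037 probe sets tested, and 10 of 18193 genes.

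The cells came from bone marrow and were negative for lineage markers and Sca-1 and positive for c-Kit, the surface phenotype of myeloerythroid progenitors, sorted into GFP-positive and GFP-negative fractions with 3 Affymetrix arrays each. Mice of both groups were male, 6 weeks old and of genotype Hes1 GFP/WT, so that all cells carried 1 reporter allele beside a wild-type allele of Hes1, a transcriptional repressor and Notch target. Nothing in the labels tells if the arrays of a group are of separate animals or of pools. All values below are log2 intensities of the deposited RMA values unless stated, and changes are GFP-positive minus GFP-negative.

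As background, 3 membrane proteins sense misfolded protein in the ER. The product of Ern1, IRE1-alpha, is a kinase and ribonuclease that splices Xbp1 mRNA into the form encoding the active factor XBP1, the product of Atf6 moves to the Golgi and is cleaved into a transcription factor, and PERK, encoded by Eif2ak3, phosphorylates eIF2-alpha, which lowers general translation while favouring that of Atf4 mRNA. In the blood system, Xbp1 is best known from mouse plasma cells and eosinophils, which need it. The splicing, cleavage and phosphorylation steps are not read by these arrays, which measured total transcript.

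Promoter sequence is shown for the 4 genes called lower in GFP-positive cells and for Hspa5 and Herpud1, the genes whose windows held an ER stress response element, since XBP1 and ATF6 are known to bind such elements in the promoters of chaperone and degradation genes. Each window is the 250 bases before the RefSeq transcription start in GRCm38.p6, printed 5′ to 3′ on the gene's strand, and 9 of the 10 genes had an entry. Capitals mark matches on either strand to CCACG, to CCAAT and CCACG separated by any 9 bases (the ER stress response element, only its ends being in capitals), to ATTGG and CCACG separated by any 1 base (its second type), to CACGTG and to TGATGNAA (a C/EBP-ATF composite element).
Ern1, chr11:106487797-106488046, minus strand: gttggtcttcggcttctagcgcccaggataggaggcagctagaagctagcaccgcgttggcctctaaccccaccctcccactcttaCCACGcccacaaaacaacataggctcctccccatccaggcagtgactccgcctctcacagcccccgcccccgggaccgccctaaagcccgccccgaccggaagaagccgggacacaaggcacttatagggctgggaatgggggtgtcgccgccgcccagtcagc
Dnajb9, chr12:44210069-44210318, minus strand: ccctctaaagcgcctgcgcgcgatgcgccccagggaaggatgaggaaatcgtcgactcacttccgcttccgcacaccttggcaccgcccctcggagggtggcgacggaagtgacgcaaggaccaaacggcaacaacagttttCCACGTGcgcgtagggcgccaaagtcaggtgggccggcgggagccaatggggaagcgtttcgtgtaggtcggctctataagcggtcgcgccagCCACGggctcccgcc
Sdf2l1, chr16:17132384-17132633, minus strand: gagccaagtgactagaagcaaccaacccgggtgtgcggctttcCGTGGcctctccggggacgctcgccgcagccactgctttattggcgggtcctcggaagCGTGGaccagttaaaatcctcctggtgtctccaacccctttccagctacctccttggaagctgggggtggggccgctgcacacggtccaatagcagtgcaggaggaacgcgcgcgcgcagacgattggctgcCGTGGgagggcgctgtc
Edem1, chr6:108828391-108828640, plus strand: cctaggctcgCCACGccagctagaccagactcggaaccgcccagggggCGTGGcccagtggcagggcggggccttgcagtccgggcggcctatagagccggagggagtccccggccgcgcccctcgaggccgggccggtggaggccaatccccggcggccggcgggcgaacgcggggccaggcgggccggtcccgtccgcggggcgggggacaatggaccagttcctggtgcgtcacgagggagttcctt
Hspa5, chr2:34771840-34772089, plus strand: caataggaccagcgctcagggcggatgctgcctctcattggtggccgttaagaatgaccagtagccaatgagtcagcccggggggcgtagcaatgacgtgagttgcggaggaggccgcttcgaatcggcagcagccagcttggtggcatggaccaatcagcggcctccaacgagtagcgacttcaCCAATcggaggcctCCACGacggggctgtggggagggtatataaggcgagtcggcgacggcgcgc
Herpud1, chr8:94386179-94386428, plus strand: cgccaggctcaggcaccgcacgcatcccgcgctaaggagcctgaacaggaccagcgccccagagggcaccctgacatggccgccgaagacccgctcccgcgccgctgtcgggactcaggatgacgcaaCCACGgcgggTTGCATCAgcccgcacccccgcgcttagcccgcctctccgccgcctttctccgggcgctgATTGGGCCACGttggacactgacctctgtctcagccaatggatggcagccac

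The full ER stress response element was in 1 of the 9 windows, that of Hspa5, 65 to 47 bases upstream of the start, and in 0.113% of 32851 windows of the same length. Its second type was in the Herpud1 window alone, 52 to 42 bases upstream, and in 0.0304% of all windows. CACGTG was in the Dnajb9 window alone, 107 to 102 bases upstream, against 6.02% of all windows, and it overlaps a CCACG match there. CCACG, which is also part of both ER stress response elements, was in 7 of the 9 windows, those of Xbp1 and Ddit3 being without it, and in 28.3% of all windows. The composite TGATGNAA was found in the Herpud1 window alone, 112 to 105 bases upstream, against 3.45% of all windows, and TGACGTGG, the core of the unfolded protein response element, in 0 of 9 windows against 0.563%. CCAAT, the other end of these elements, was in 7 of 9 windows and 33.8% of all windows, and is not in capitals where it stands alone. These are matches of letters, not measured sites, so they say nothing about binding in these cells.

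In GFP-positive cells, 4 of the 10 genes fell, namely Ern1 by 3.28-fold, Edem1 by 1.95-fold, Dnajb9 by 1.92-fold and Sdf2l1 by 1.68-fold (limma, Benjamini-Hochberg adjusted p under 0.05 over all probe sets). Over all genes, 9.92% were called lower and 8.15% higher. The number called higher among the 10 was 0, with Ddit3 the only gene above 0 at an unadjusted p under 0.05. The log2 change was below 0 in 8 of the 10 genes, with a median of -0.50, whereas over all genes the median was 0.11 and 64.6% lay above 0. The groups did not overlap in 9 of the 10 genes, against 45.6% of all genes. In these bulk samples, fewer cells of a type and less RNA per cell cannot be told apart.

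**Figure D1:**
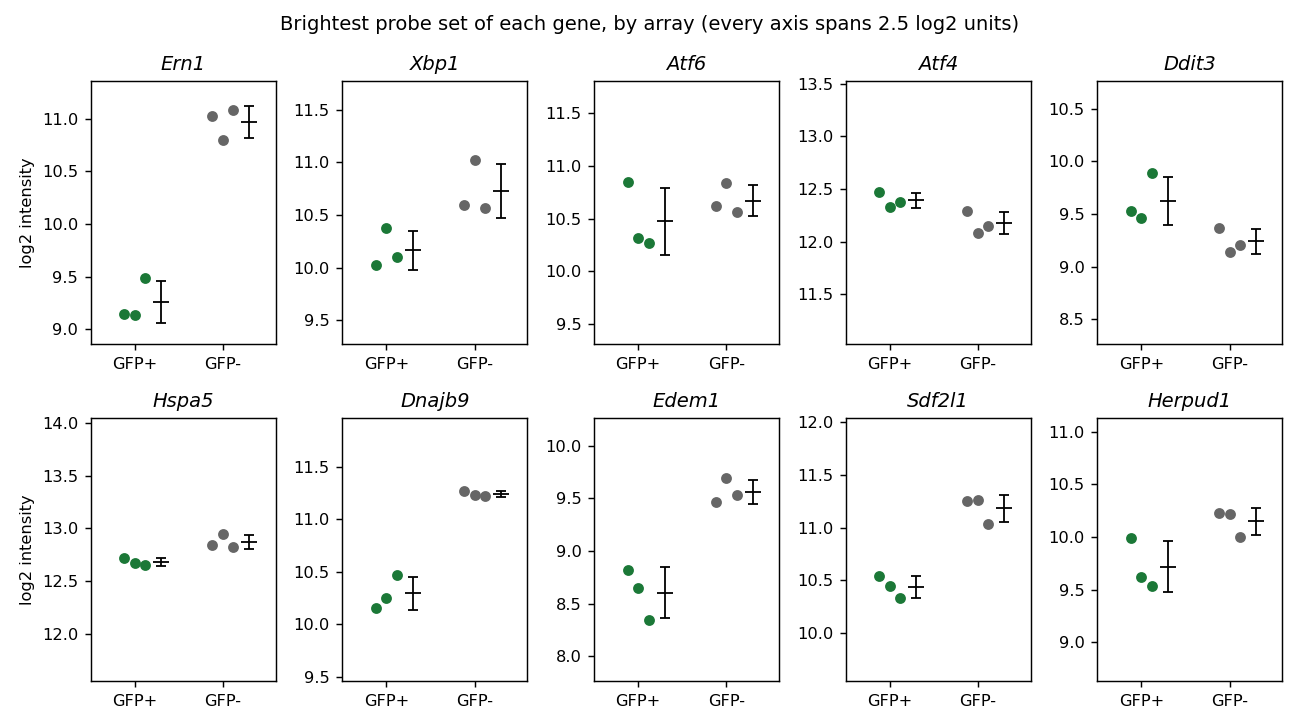
Log2 intensity (y axis) of the 10 genes on each array, GFP-positive left of GFP-negative, each point being 1 array and each bar the mean of 3, with each gene shown by its brightest probe set. The groups of Ern1 lie 1.31 apart at their nearest arrays and those of Dnajb9 0.75 apart, whereas the groups of Atf6 overlap.

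Ern1 showed the largest change among the 10 genes. The log2 intensity of its brightest probe set was 9.15, 9.13 and 9.49 in GFP-positive arrays, against 11.02, 10.80 and 11.08 in GFP-negative arrays. All GFP-positive arrays thus lay well below all GFP-negative ones. The means were 9.26 ± 0.20 and 10.97 ± 0.15 (SD, n = 3 each), a log2 change of -1.71 with a standard error of 0.14 and a 95% interval from -2.05 to -1.38 (limma adjusted p = 0.0014). Ern1 stayed called without any 1 array, with limma adjusted p-values from 0.00474 to 0.00896.

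The other 4 probe sets of Ern1 differed among themselves. The probe set 1438583_at read 6.95, 7.10 and 6.46 in GFP-positive arrays, against 7.42, 7.98 and 8.21 in GFP-negative arrays, again without overlap, and was 2.04-fold lower (limma adjusted p = 0.0445). Without any 1 array it kept its call only when GFP-negative array 1 was left out (limma adjusted p = 0.0268), the others giving 0.0695 to 0.126. The remaining 3, 1421240_at, 1450176_at and 1431886_at, had log2 intensities from 3.61 to 6.47 with overlapping groups, and log2 changes of -0.11, -0.10 and -0.02. The parts of the transcript that these probe sets read were not analysed here.

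Atf6, the sensor that becomes a transcription factor after cleavage, did not pass the test. Its brightest probe set read 10.84, 10.32 and 10.27 in GFP-positive arrays, against 10.62, 10.84 and 10.56 in GFP-negative arrays. GFP-positive array 1 lay level with the highest GFP-negative array, so the groups overlapped. The log2 change was -0.20, with a 95% interval from -0.63 to 0.24 (limma adjusted p = 0.494). A further probe set, 1435444_at, was tighter, at 9.36, 9.28 and 9.38 in GFP-positive arrays against 9.69, 9.60 and 9.67 in GFP-negative arrays, with a log2 change of -0.31 (95% interval -0.52 to -0.10, limma adjusted p = 0.0622). The probe set 1456021_at gave -0.22 (limma adjusted p = 0.279), its highest GFP-positive array at 8.5842 lying just below its lowest GFP-negative array at 8.5884. The third sensor, Eif2ak3, and Atf6b, a relative of Atf6, were added after their values were seen. Eif2ak3 read 8.98, 9.18 and 8.57 in GFP-positive arrays against 9.62, 9.01 and 9.30 in GFP-negative arrays (limma adjusted p = 0.255), and Atf6b had a log2 change of -0.10 (limma adjusted p = 0.635), so that both overlapped between groups.

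Xbp1, the substrate of IRE1-alpha, had lower values in GFP-positive cells that missed the threshold. Its brightest probe set read 10.03, 10.38 and 10.10 in GFP-positive arrays, against 10.59, 11.02 and 10.56 in GFP-negative arrays. The groups did not overlap, and array 2 was the highest of its group on both sides. The log2 change was -0.56, with a standard error of 0.16 and a 95% interval from -0.96 to -0.16 (limma adjusted p = 0.0736). Of the other 3 probe sets, 1420886_a_at read 9.23, 9.77 and 9.38 in GFP-positive arrays against 10.11, 10.39 and 9.97 in GFP-negative arrays, and fell by 0.70 on the log2 scale (limma adjusted p = 0.0496). That call was kept only when GFP-positive array 2 was left out (limma adjusted p = 0.0358), the other arrays giving 0.0826 to 0.135. The probe sets 1420011_s_at and 1437223_s_at gave log2 changes of -0.54 and -0.49 (limma adjusted p = 0.0875 and 0.208). Array 2 was the highest of both groups in all 4 probe sets. Spliced and unspliced Xbp1 were not told apart.

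Atf4, the factor whose translation rises when eIF2-alpha is phosphorylated, had higher values in GFP-positive cells that missed the threshold. Its brightest probe set read 12.47, 12.33 and 12.38 in GFP-positive arrays, against 12.29, 12.08 and 12.15 in GFP-negative arrays. The arrays did not overlap, although the gap was only 0.04. It differed by 0.22 on the log2 scale, with a 95% interval from -0.02 to 0.46 (limma adjusted p = 0.188). Its probe sets 1438992_x_at and 1439258_at gave 0.27 and 0.34 (limma adjusted p = 0.316 and 0.112).

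Ddit3, which encodes CHOP, a factor induced by ATF4 and known for promoting cell death under lasting stress, read 9.53, 9.46 and 9.89 in GFP-positive arrays, against 9.37, 9.14 and 9.21 in GFP-negative arrays. Each GFP-positive array was above each GFP-negative one. A log2 change of 0.38 had a 95% interval from 0.04 to 0.73 (limma adjusted p = 0.125). The second probe set, 1443897_at, did not share that order, with 7.85, 7.96 and 8.38 in GFP-positive arrays against 7.64, 7.75 and 8.84 in GFP-negative arrays and a log2 change of -0.015 (limma adjusted p = 0.982).

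Hspa5, which encodes BiP, the main Hsp70 chaperone of the ER and a restraint on the sensors, read 12.72, 12.67 and 12.65 in GFP-positive arrays, against 12.85, 12.95 and 12.82 in GFP-negative arrays. The groups were tight and separate, but close together. The log2 change was -0.19, with a standard error of 0.09 and a 95% interval from -0.41 to 0.02 (limma adjusted p = 0.188). The probe set 1427464_s_at gave -0.26 (95% interval -0.49 to -0.03, limma adjusted p = 0.12), and the dimmer 1447824_x_at gave 0.13 with overlapping groups.

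Dnajb9, which encodes ERdj4, a J-domain partner of BiP and a known XBP1 target, has 1 probe set. It read 10.16, 10.26 and 10.47 in GFP-positive arrays, against 11.27, 11.22 and 11.22 in GFP-negative arrays. The GFP-negative arrays lay almost on a single value and the GFP-positive arrays at least 0.75 below them. The fitted change was -0.94 on the log2 scale, with a standard error of 0.11 and a 95% interval from -1.21 to -0.68 (limma adjusted p = 0.00357).

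Sdf2l1, an ER protein that works with J-domain co-chaperones, also has 1 probe set. It read 10.54, 10.44 and 10.33 in GFP-positive arrays, against 11.26, 11.26 and 11.03 in GFP-negative arrays, with no overlap. Sdf2l1 thus changed by -0.75 on the log2 scale, with a standard error of 0.11 and a 95% interval from -1.02 to -0.48 (limma adjusted p = 0.00836).

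Edem1, a lectin-like protein that directs misfolded glycoproteins to degradation, fell in both of its probe sets. The brighter read 8.82, 8.64 and 8.34 in GFP-positive arrays, against 9.47, 9.69 and 9.53 in GFP-negative arrays. All GFP-positive arrays were below all GFP-negative ones. This probe set had a log2 change of -0.96, with a standard error of 0.15 and a 95% interval from -1.32 to -0.61 (limma adjusted p = 0.00923), and the second probe set, 1424065_at, fell by 0.82 on the log2 scale (limma adjusted p = 0.00441).

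Herpud1, an ER membrane protein that assembles the degradation machinery, read 9.9952, 9.62 and 9.54 in GFP-positive arrays, against 10.23, 10.22 and 9.9983 in GFP-negative arrays. The highest GFP-positive and the lowest GFP-negative array were 0.0031 apart, so the groups all but touched. The log2 change was -0.43, with a 95% interval from -0.79 to -0.07 (limma adjusted p = 0.109), and the probe set 1435626_a_at gave -0.48 (limma adjusted p = 0.0652). Without GFP-positive array 1 the log2 change of the brighter probe set was -0.57 and passed the threshold (limma adjusted p = 0.0411).

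**Figure D2:**
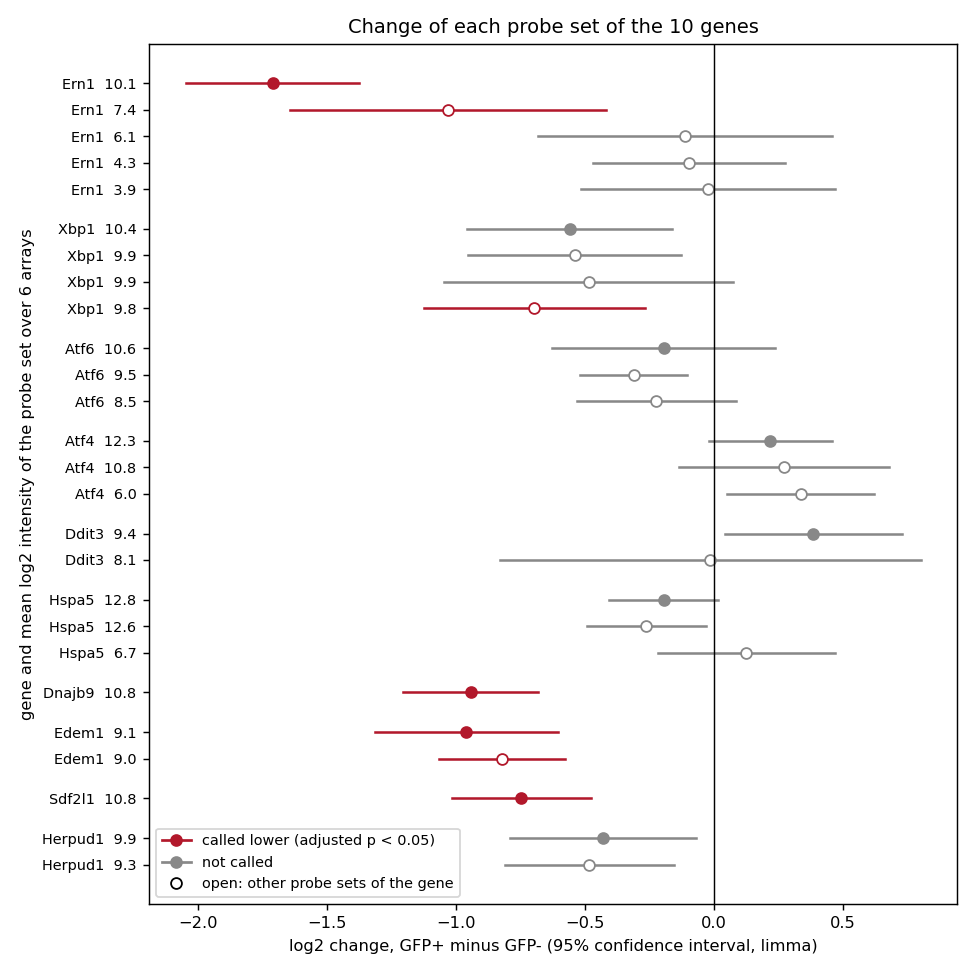
Log2 change, GFP-positive minus GFP-negative, of the 26 probe sets with 95% intervals, grouped by gene, with the 7 called lower marked apart from the 19 not called. The intervals of Dnajb9, Edem1, Sdf2l1 and the brightest Ern1 probe set stay below 0, and the dim probe sets of Ern1 sit around 0. The intervals are not adjusted for the number of probe sets, and some not called, such as both of Herpud1, also stay below 0.

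Across the 26 probe sets, 7 were called lower and 0 higher, against 7.66% and 6.35% of all probe sets, and 5 had a log2 change above 0, against 62.3% of all probe sets. The groups did not overlap in 18 of the 26, against 38.5%. The genes with several probe sets called were Ern1 with 2 of 5 and Edem1 with 2 of 2.

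**Figure D3:**
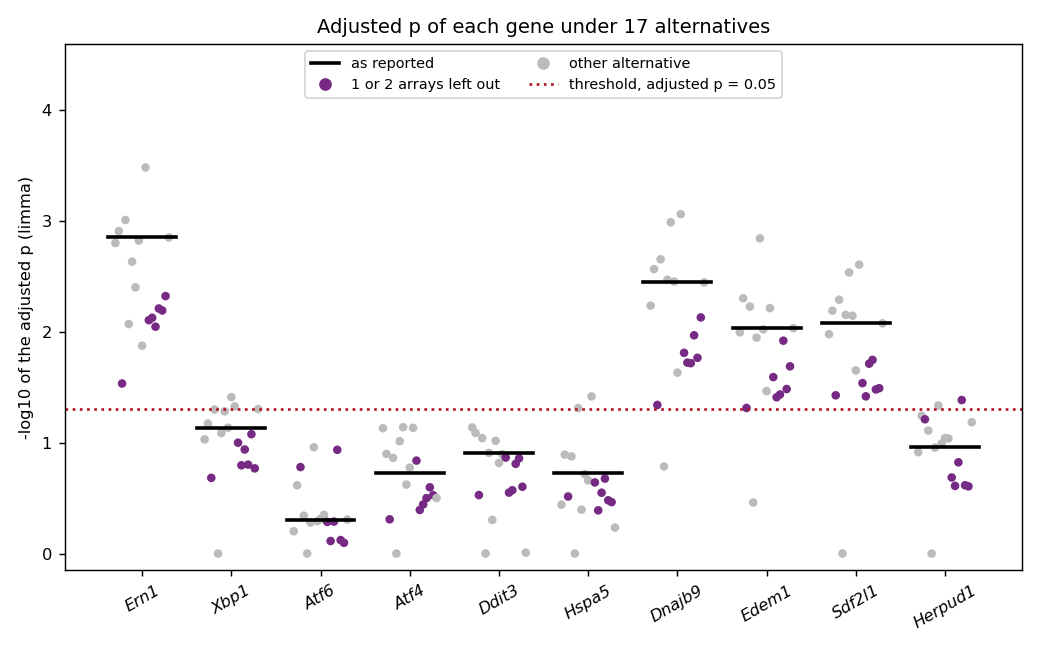
Significance of each gene, as -log10 of its limma adjusted p on the y axis, in the setting reported here (bar) and in 17 alternatives (points), with the threshold as a dotted line. Ern1 stays above the line in every alternative, whereas Dnajb9, Edem1 and Sdf2l1 drop below it only with a fold floor of 1.5.

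The genes around the response were taken from 7 lists. Over all genes, 8.15% were called higher and 9.92% lower, and 64.6% had a log2 change above 0. Among other stress sensors and regulators, 3 of 29 measured genes were called higher (10.3%) and 2 lower (6.9%), with a median log2 change of -0.02. Eif2b3 and Eif2b4, subunits of eIF2B, the exchange factor that phosphorylated eIF2-alpha inhibits, rose by 1.78-fold and 1.57-fold (limma adjusted p = 0.00508 and 0.0333). Eif2ak1, the heme-regulated eIF2-alpha kinase known in mouse erythroid cells, rose by 1.30-fold (limma adjusted p = 0.0449), but did not pass in any of the 6 fits that left 1 array out (0.0508 to 0.144). The call of Eif2b4 was kept only without GFP-positive array 1 (0.0409). The count of 3 became 1 or 2 when an array was left out. Without GFP-negative array 1, Eif2b1, named after its values were seen, passed as well (limma adjusted p = 0.0334). Wfs1, an ER membrane protein, fell by 1.72 on the log2 scale and Map3k5, a kinase downstream of IRE1-alpha that encodes ASK1, by 0.68 (limma adjusted p = 0.00253 and 0.00637).

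Among ER chaperones and folding enzymes, 6 of 33 genes fell (18.2%, against 9.92% of all genes) and 1 rose. The median log2 change was -0.23, with 5 genes above 0. Fkbp7, a prolyl isomerase of the ER, read 6.66, 6.44 and 6.20 in GFP-positive arrays against 7.96, 8.26 and 8.33 in GFP-negative arrays, and fell by 3.37-fold (limma adjusted p = 0.0018). Pdia5, a protein disulfide isomerase, fell by 2.39-fold and Ero1b, an oxidase that recharges such enzymes, by 2.30-fold (limma adjusted p = 0.00471 and 0.00642). Fkbp14, a further prolyl isomerase, rose by 1.95-fold (limma adjusted p = 0.0163), a call that did not hold when GFP-positive array 3 (0.0552), GFP-negative array 1 (0.0501) or GFP-negative array 3 (0.0636) was left out. The number called lower was 7 without GFP-positive array 1 and 4 without any 1 of the other 5 arrays. The abundant chaperones Hsp90b1 and Calr, named after their values were seen, had log2 changes of -0.31 and -0.13 (limma adjusted p = 0.092 and 0.45).

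Among genes of ER-associated degradation other than Edem1 and Herpud1, 2 of 29 fell (6.9%, against 9.92% of all genes) and 1 rose. Their median was 0.08. Edem2, a relative of Edem1, fell by 1.90-fold (limma adjusted p = 0.00484), in 1 of its 2 probe sets. Selenos, an ER membrane selenoprotein, fell by 0.59 on the log2 scale in its brightest probe set (limma adjusted p = 0.0121, and 0.0502 without GFP-negative array 2). All 3 of its probe sets were called lower. Yod1, a deubiquitinase that acts with p97, rose by 1.62-fold (limma adjusted p = 0.00451).

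Among targets of the PERK and ATF4 branch, 7 of 43 genes rose (16.3%, against 8.15% of all genes) and 2 fell. The median was 0.19. Of the 43 genes, 30 were above 0, where 64.6% of all genes lay above 0. Asns, asparagine synthetase, read 12.55, 12.64 and 12.63 in GFP-positive arrays against 11.52, 11.30 and 11.19 in GFP-negative arrays, without overlap, and rose by 2.41-fold (limma adjusted p = 0.00169). Sesn2, a stress-induced regulator of mTORC1, rose by 1.91-fold and Eif4ebp1, an inhibitor of cap-dependent translation, by 1.58-fold (limma adjusted p = 0.0215 and 0.0238). The count of 7 depended on single arrays: leaving out GFP-positive array 1 or 2 gave 2, GFP-positive array 3 gave 3, GFP-negative array 1 gave 6, and GFP-negative array 2 or 3 gave 1. Sesn2 kept its call only when GFP-positive array 2 or GFP-negative array 1 was left out, and Eif4ebp1 only without GFP-positive array 1. With array medians subtracted, 14 were called higher. Ndrg1, a gene induced by several stresses, fell by 4.02-fold in its brightest probe set (limma adjusted p = 0.00136), and all 5 of its probe sets were called lower. Jdp2, an AP-1 family repressor, fell by 3.35-fold (limma adjusted p = 0.00154).

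The lists for entry into the ER and for exit from it were taken next. Of 40 genes of the translocon, signal peptidase and glycosylation, 1 rose and 1 fell, with a median of -0.09. These are 2.5% each, against 8.15% and 9.92% of all genes. Srp19, a signal recognition particle protein, rose by 1.33-fold (limma adjusted p = 0.0308), but missed the threshold whichever array was left out (0.0611 to 0.109), and Tram2, a translocon-associated protein, fell by 1.24 on the log2 scale (0.0249), a call kept only without GFP-positive array 1 or 2. Of 27 genes of COPII and ER to Golgi transport, 3 fell (11.1%, against 9.92% of all genes) and 0 rose. Their median was -0.11. Tmed10, a cargo receptor, fell by 1.75-fold (limma adjusted p = 0.00313) and kept its call without any 1 array. Sec16b, which is dim, and Mcfd2, a cargo receptor subunit, fell by 1.75 and 0.57 on the log2 scale, Mcfd2 keeping its call only without GFP-positive array 1 and Sec16b only without GFP-positive array 1 or 3. Leaving out GFP-positive array 2 or any GFP-negative array thus took the count of 3 to 1, and GFP-positive array 3 took it to 2.

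Of 27 heat shock genes of the cytosol and mitochondria, 2 rose (7.41%, against 8.15% of all genes) and 0 fell. Their median was 0.16, and 23 were above 0. Hspa4l, an Hsp110-type exchange factor, rose by 1.86-fold (limma adjusted p = 0.00514), and Dnajb4, a J-domain protein, by 1.46-fold (limma adjusted p = 0.0457), the call of Dnajb4 holding only when GFP-negative array 1 was left out (0.025). That fit called 3 genes higher, and the fits without each of the other arrays called 1. Several of these genes were called in only some of their probe sets, namely 1 of 2 for Fkbp7, Fkbp14, Sesn2, Jdp2 and Tram2, 2 of 3 for Ero1b, Yod1 and Eif4ebp1, 1 of 3 for Dnajb4, 1 of 5 for Eif2ak1 and 2 of 5 for Hspa4l.

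**Figure D4:**
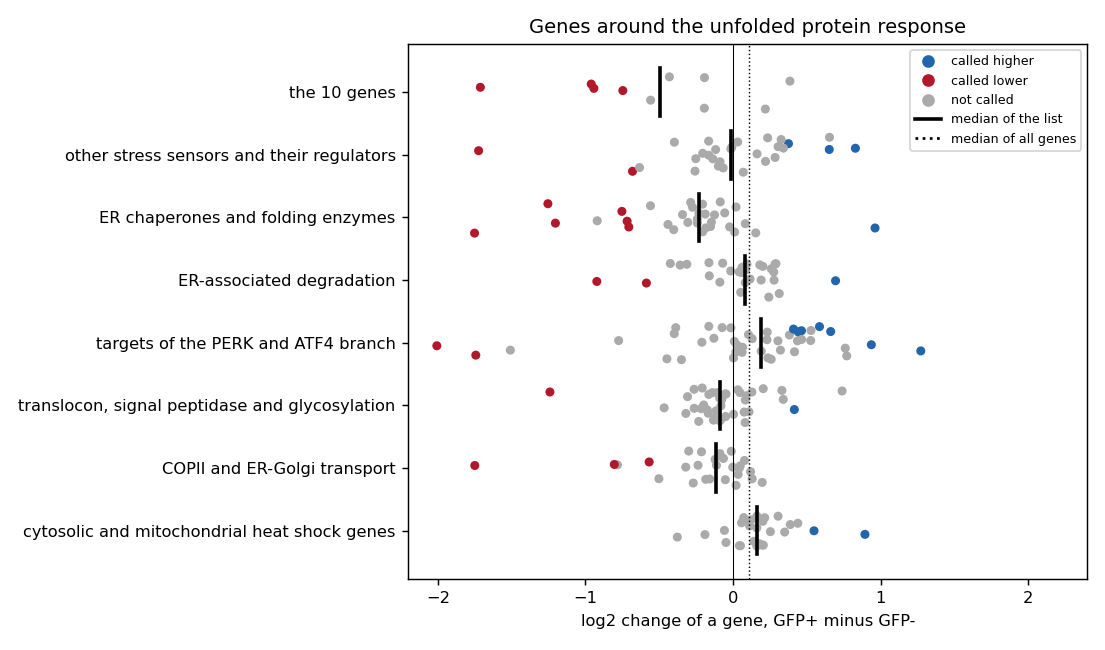
Log2 change of each gene (points), GFP-positive minus GFP-negative, for the 10 genes and 7 lists around them, with the list median as a bar and the median of all genes, 0.11, as a dotted line. Of the chaperones 6 of 33 are called lower, against 9.92% of all genes. Of the PERK and ATF4 targets 7 of 43 are called higher, against 8.15% of all genes. That count of 7 was 1 to 6 when an array was left out.

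Markers of several cell types in the gate differed with the reporter. Over all genes, 8.15% were called higher and 9.92% lower. Of 15 erythroid markers, 10 rose and 0 fell in GFP-positive cells, with a log2 summed intensity of 16.30 to 16.44 in GFP-positive arrays against 15.72 to 15.76 in GFP-negative arrays. Of 16 granulocyte and monocyte markers, 9 fell and 0 rose, at 15.43 to 15.57 in GFP-positive arrays against 16.08 to 16.24 in GFP-negative arrays. The 7 not called, Ltf, Camp, Ngp, S100a8, S100a9, Lcn2 and Itgam, had log2 changes above 0. Mpo, called lower, lost its call without GFP-negative array 2 (limma adjusted p = 0.0537) or 3 (0.0507). Mast cell, basophil and eosinophil markers were called lower in 4 and higher in 2 of 11, at 11.12 to 12.29 in GFP-positive arrays against 12.84 to 12.95 in GFP-negative arrays. Of 18 B and plasma cell markers, Ighm and Cd79b fell and 0 rose, although 10 of the 18 had a log2 change above 0 and the median was 0.21. Ighm was called in 2 of its 11 probe sets. The log2 summed intensity of the 18 markers, which the brightest genes set, was 11.12 to 11.79 in GFP-positive arrays against 12.21 to 12.56 in GFP-negative arrays. Megakaryocyte markers rose in 2 of 9, of which Vwf kept its call whichever array was left out and Gp5 only without GFP-positive array 3 (limma adjusted p = 0.0272) or GFP-negative array 2 (0.0416). Among 8 T and natural killer cell markers, Zap70 rose and Nkg7 fell. The call of Zap70 held only when GFP-positive array 1 was left out (0.0397), and Nkg7 lost it without GFP-negative array 2 (0.0512) or 3 (0.0523). The rise of Cma1, a mast cell protease and 1 of the 2 called higher in its list, held only without GFP-positive array 2 (0.0284) or 3 (0.0161). The other, Gzmb, rose by 15.9-fold (limma adjusted p = 0.000936) and kept its call whichever array was left out. In GFP-negative arrays Gzmb was dim, at 5.09 to 5.70, which limits the fold value. The part of these cell types in the changes of the 10 genes was not tested.

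Plasma cells, which depend on Xbp1, were looked at separately. Jchain, the immunoglobulin joining chain, read 8.65, 3.69 and 3.64 in GFP-positive arrays against 3.88, 4.08 and 8.85 in GFP-negative arrays, and was chosen after its values were seen. GFP-positive array 1 and GFP-negative array 3 were therefore the arrays with high Jchain signal. The brightest probe set of Ighm was highest of its group in GFP-positive array 1, but not in GFP-negative array 3. It read 8.36, 7.69 and 7.87 in GFP-positive arrays against 10.11, 9.79 and 9.91 in GFP-negative arrays. GFP-positive array 1 was the lowest of its group in all 4 probe sets of Xbp1, and GFP-negative array 3 the lowest of its group in 2 of the 4. Leaving out both arrays with high Jchain signal left 2 arrays a group. The limma adjusted p was then 0.0292 for Ern1, 0.0456 for Dnajb9, 0.0485 for Edem1 and 0.0373 for Sdf2l1, each by its brightest probe set. The second probe set of Edem1, 1424065_at, missed the threshold (0.057), as did 1438583_at of Ern1 (0.188). The part of plasma cells in the changes of these genes was not tested. Of the genes named from the 7 lists that kept their call without any 1 array, Eif2b3 (0.0641), Map3k5 (0.0737), Yod1 (0.0517) and Hspa4l (0.067) missed the threshold without both.

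For genes whose pattern was most like that of Xbp1, Ddit3 and Hspa5, Pearson's r over the 6 arrays was ranked among 18183 other genes, as a description in which both groups and all arrays are shared. For Xbp1 they were Copa, a coat protein of COPI vesicles (r = 0.996), Vps9d1 (0.985) and 9530068E07Rik (0.984), and 49 genes were above 0.95. For Ddit3 they were Sat2 (0.992), Slc26a5 (0.989) and Spaca3 (0.988), with 116 genes above 0.95. For Hspa5 they were Casc3 (0.995), Cd200r4 (0.993) and Rab11fip5 (0.993), with 99 above 0.95.

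Over the series, 6312 probe sets were called, 45.3% of them higher, or 61.5% with array medians subtracted, which moved the median change of all probe sets to 0.17 from 0.09. Median intensities were 59.9 to 62.1 in GFP-positive arrays and 63.7 to 64.9 in GFP-negative arrays. Hes1 checked the sort: it read 7.12 to 7.20 in GFP-positive arrays and 5.74 to 6.01 in GFP-negative arrays. Kit, which encodes c-Kit, read 11.13 to 11.24 in GFP-positive arrays and 11.31 to 11.53 in GFP-negative arrays.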

How the data were processed

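Per the labels' protocols, 5 ng of total RNA per sample went through NuGEN Ovation amplification and biotin labelling. The authors deposited linear probe set intensity values, which were made with RMA per the submitters' processing notes. For the RMA version, its settings and the step back to linear values, the sources used here say nothing. The deposited intensities were taken to log2 as they stand. Of 45101 probe sets, 64 controls were left out. Names are those of the platform annotation in GEO, and the brightest probe set over the 6 arrays stood for a gene.

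The test of GFP-positive against GFP-negative arrays (3 each) was limma's (version 3.58.1, R 4.3.3, lmFit and eBayes, two-sided, 6.38 total degrees of freedom), with Benjamini-Hochberg adjustment over 45037 probe sets and a threshold of 0.05. Its p-values reflect the spread among these arrays alone, possibly technical, and 3 arrays a group limit precision.

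The members, lists and tests were chosen with earlier results of these data known, so that no list is independent evidence. The genes named were all 10 members, from each list the 3 called higher and the 3 called lower with the largest change and no overlap, and the 3 genes most like each of Xbp1, Ddit3 and Hspa5, with exceptions stated beside them. Of the cell marker lists only some genes are named. The listed genes without a single-gene probe set, such as Bax, were not analysed here. The alternatives tried, which include the replicate number as a block, other scalings, a fold floor, other probe sets for a gene and arrays left out, are given at the end.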

Additional observations from a re-analysis of the deposited data

How the results depend on the processing

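Ern1, Dnajb9, Edem1 and Sdf2l1 stayed called lower in every alternative run, except that a fold floor of 1.5 left only Ern1 (limma treat adjusted p = 0.164 for Dnajb9, 0.346 for Edem1 and 1 for Sdf2l1), so that 1 of the 10 genes was called lower in place of 4. The number lower was 4 to 5 when an array was left out and up to 6 otherwise, and 0 were higher in every alternative. Of 6312 probe sets called, 1302 passed with that floor and 2333 without both arrays with high Jchain signal, which were known from earlier results. Without 1 array the count was 3404 to 5235. The direction turned for Ddit3 (-0.0148) and Hspa5 (0.13) when the probe set of highest variance stood for the gene, and the cause was not tested. Replicates shared numbers only: deviations of same-numbered arrays correlated at 0.0191 to 0.0547, although 6 of 6 arrays correlated best with their own number, a hint from the data. With the replicate block, 4841 probe sets and 5 of the 10 genes (lower) were called, Xbp1 joining them (limma adjusted p = 0.0387). Xbp1 also passed with trend and robust priors (0.0469) and with its probe set of highest variance (0.0496). Hspa5 passed with log2(value + 50) (0.0486) and with trend and robust priors (0.0381), and Herpud1 with the mean of its probe sets (0.0461). Over the 17 alternatives, genes called higher numbered 0 to 5 among sensors and regulators (3 as reported), 1 to 15 among PERK and ATF4 targets (7), 0 to 3 in degradation (1) and in the translocon list (1), 0 to 1 among chaperones (1), 0 to 2 in COPII transport (0) and 0 to 7 among heat shock genes (2). Those called lower numbered 1 to 3 (2), 2 to 4 (2), 0 to 4 (2), 0 to 10 (1), 1 to 9 (6), 0 to 4 (3) and 0 (0) in the same lists. Low intensities limit the 3 dim probe sets of Ern1 and the values given for Sec16b, Wfs1, Fkbp14, Sat2, Slc26a5, Spaca3 and Cd200r4. They also limit the results of Cma1 and Zap70, and those of Gzmb in GFP-negative arrays.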

Other observations

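Small families inside the lists were looked at after their values were seen, so no test is given for them. For comparison, 8.15% of all genes were called higher, 9.92% were called lower and 64.6% lay above 0. The groups did not overlap in 45.6% of all genes. Of 10 aminoacyl transfer RNA synthetases, which are known ATF4 targets, all had log2 changes above 0 (0.06 to 0.77) and 2, Gars and Iars, were called higher, a count that was 0 to 2 when an array was left out and 6 with array medians subtracted. Of 5 eIF2B subunits, 5 were above 0 (0.23 to 0.83) and 2 were called higher. Of 5 enzymes of serine and one-carbon metabolism, also ATF4 targets, 0 were called and the changes ran from -0.45 to 0.26. Of 4 genes of stress feedback, Ppp1r15a, Trib3, Chac1 and Atf3, 0 were called and 4 had overlapping groups. Of 5 protein disulfide isomerases, 5 were below 0 (-1.25 to -0.23) and 3 were called lower, namely Pdia4, Pdia5 and Pdia6, a count that was 1 to 3 when an array was left out.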
